A study of Mus musculus with 4 samples.

Results

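The cells described are CD8 T cells of mouse spleen with a high interferon response, taken as droplet barcodes with at least 3 UMIs of Ifit1, Ifit3 and Ifit3b together. A UMI (unique molecular identifier) counts 1 captured RNA molecule. A CD8 barcode had a T-cell receptor beta chain (TRB) contig in the matched TCR library, at least 1 UMI of Cd8a or Cd8b1, no Cd4 UMI, at most 2 UMIs of Cd79a and Cd79b and at most 5 of Lyz2. Of 33120 barcodes in the series 8442 were CD8 by this rule, and 59 of these reached the Ifit limit, 53 of 5722 in the pBIC library and 6 of 2720 in the pBIC10 library. They were set against the CD8 barcodes of the same library with no UMI of the 3 Ifit genes, 5300 in pBIC and 2611 in pBIC10, called zero barcodes from here on. The members were chosen by their Ifit counts, so the Ifit values only describe that choice.

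The series asks how interleukin 10 made by malignant B cells shapes the surroundings of a lymphoma. It holds spleen cells of 1 female pBIC mouse and 1 female pBIC10 mouse, and the labels give neither the alleles behind these genotype names nor the age. Live GFP+ lymphoma cells and GFP- cells of the microenvironment were sorted and mixed at 20% and 80%, and each mouse gave 1 gene expression and 1 TCR library. With 1 mouse for each genotype no test was made, and genotype, mouse and library cannot be told apart. All intervals are at 95% and cover counting error only, and a gene is called higher or lower where its level differs by at least 1.5-fold.

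Ifit1, Ifit3 and Ifit3b encode interferon-induced proteins with tetratricopeptide repeats, of which Ifit1 binds foreign RNA. Type I interferons act through the receptor chains Ifnar1 and Ifnar2 and the kinases Jak1 and Tyk2 on a complex that includes Stat2 and Irf9 and binds interferon-stimulated response elements (ISRE), while interferon gamma acts mostly on gamma-activated sites (GAS). The induced genes include antiviral effectors, sensors of foreign nucleic acid, antigen-presentation genes and feedback inhibitors such as Usp18 and Socs1, and in CD8 T cells type I interferon is known to affect division, survival and effector function.

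The promoters of the 3 genes of the rule are shown because they carry the element that joins these genes to interferon signalling. Those of Isg15, Bst2 and Socs1, which were higher in the members, follow, and last that of Irf7, which was higher too but whose window held no match. Each sequence is the 250 bases before the annotated start, 5′ to 3′ on the gene's strand, from RefSeq on GRCm38.p6, and capitals mark matches to the ISRE core, read on either strand as GAAA, any 2 bases and GAAA.
Ifit1: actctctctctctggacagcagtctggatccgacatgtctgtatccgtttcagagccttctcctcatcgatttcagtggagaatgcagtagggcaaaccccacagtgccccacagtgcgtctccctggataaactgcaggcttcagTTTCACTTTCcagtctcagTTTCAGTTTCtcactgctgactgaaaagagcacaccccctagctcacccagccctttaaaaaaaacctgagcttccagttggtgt
Ifit3: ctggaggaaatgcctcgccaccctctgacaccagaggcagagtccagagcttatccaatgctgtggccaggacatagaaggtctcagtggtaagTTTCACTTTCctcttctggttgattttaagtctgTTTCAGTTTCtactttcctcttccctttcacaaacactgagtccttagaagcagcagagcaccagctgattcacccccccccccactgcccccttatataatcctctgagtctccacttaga
Ifit3b: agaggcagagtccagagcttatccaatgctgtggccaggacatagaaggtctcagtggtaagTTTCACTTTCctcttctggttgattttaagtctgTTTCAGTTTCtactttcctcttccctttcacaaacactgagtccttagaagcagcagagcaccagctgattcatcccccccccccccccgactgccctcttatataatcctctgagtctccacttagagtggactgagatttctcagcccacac
Isg15: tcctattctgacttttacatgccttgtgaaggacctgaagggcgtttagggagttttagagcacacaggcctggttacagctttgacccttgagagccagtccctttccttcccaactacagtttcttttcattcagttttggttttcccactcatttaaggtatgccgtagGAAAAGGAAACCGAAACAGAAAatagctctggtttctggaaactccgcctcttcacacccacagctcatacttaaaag
Bst2: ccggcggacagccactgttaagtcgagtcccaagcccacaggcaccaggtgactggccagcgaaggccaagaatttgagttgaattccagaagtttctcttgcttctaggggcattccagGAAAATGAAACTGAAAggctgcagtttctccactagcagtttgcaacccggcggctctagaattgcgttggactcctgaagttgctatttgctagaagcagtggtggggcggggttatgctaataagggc
Socs1: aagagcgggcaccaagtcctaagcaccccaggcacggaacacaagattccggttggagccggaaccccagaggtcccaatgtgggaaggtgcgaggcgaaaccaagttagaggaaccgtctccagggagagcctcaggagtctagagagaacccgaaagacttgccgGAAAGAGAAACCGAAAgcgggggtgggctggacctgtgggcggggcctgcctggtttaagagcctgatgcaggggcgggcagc
Irf7: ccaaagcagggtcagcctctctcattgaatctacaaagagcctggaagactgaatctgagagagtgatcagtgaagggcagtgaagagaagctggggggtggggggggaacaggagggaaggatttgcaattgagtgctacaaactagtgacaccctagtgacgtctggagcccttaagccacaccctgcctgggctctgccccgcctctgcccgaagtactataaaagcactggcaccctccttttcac
The windows lie at chr19:34640639-34640888 (Ifit1), chr19:34583279-34583528 (Ifit3) and chr19:34607707-34607956 (Ifit3b) on the plus strand. Those of Isg15 (chr4:156200819-156201068), Bst2 (chr8:71537473-71537722), Socs1 (chr16:10785537-10785786) and Irf7 (chr7:141266425-141266674) lie on the minus strand. Ifit1, Ifit3 and Ifit3b each held 2 matches, read on the strand opposite to the gene, and Isg15 held 3 overlapping ones on its own strand. The windows of Ifit3 and Ifit3b share a run of 169 identical bases with both matches in it, and since these genes are close copies, the split of UMIs between Ifit3 and Ifit3b is uncertain.

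Of 27025 genes with such windows, 3.46% held the ISRE core on either strand and 8.13% held the GAS core TTCNNNGAA, which reads the same on both strands. Of the 27 interferon genes called higher in pBIC members (described further on), 22 had a window, and 7 of them (31.8%) held the ISRE core: Isg15, Bst2, Socs1, Trim30a, Phf11b, Mndal and Ifi203. The GAS core was in 2 of the 22, Bst2 and Samhd1. Of the 7 testable interferon genes with a window that were not past 1.5-fold, 0 held the ISRE core and 2 the GAS core. Of the 41 with a window that were not testable 16 (39.0%) held the ISRE core and 4 the GAS core. Among the interferon gamma GTPases and targets 11 of 14 genes with a window held the ISRE core and 6 the GAS core, and among proliferation genes 0 of 17 held the ISRE core and 1 the GAS core. These are matches of letters, not binding sites, and the windows are of another build than the one the processing notes name for the counts.

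The T-cell label was checked against genes outside the rule. Cd3d, Cd3e or Cd3g, which encode parts of the T-cell receptor complex, had UMIs in all 53 pBIC and all 6 pBIC10 members. Cd8a and Cd8b1, which the rule used, summed to 1586 UMIs per 1000000 UMIs of the group (CPM) in pBIC members and 1445 in zero barcodes. Median depth was 6810 UMIs per member and 6609 per zero barcode in pBIC, and 6496.5 and 7625 in pBIC10. Foxp3, Klrb1c, Ncr1, Siglech and Xcr1, markers of regulatory T cells, NK cells and dendritic cells, had no UMI in any member, for which the intervals reach 6.72% of pBIC and 45.9% of pBIC10 members. These genes were rare in pBIC zero barcodes too, from 0.0566% for Xcr1 to 1.77% for Klrb1c. Flt3, another dendritic gene, had 1 UMI in 1 of 53 pBIC members (1.89%, 0.0478 to 10.1%) and UMIs in 0.264% of zero barcodes. Lyz2, a myeloid gene that the rule limits, had UMIs in 37.7% of pBIC members and 36.8% of zero barcodes. Of 712 barcode sequences found in both libraries, 1 was a pBIC member.

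Of the 53 pBIC members, 3 were rich in RNA of another lineage (at least 20 haemoglobin UMIs, or at least 50 of H2-Aa, H2-Ab1, H2-Eb1 and Cd74). A pair of them held 437 and 641 haemoglobin UMIs, and the deepest member held 627 MHC class II UMIs among 27383. In zero barcodes this applied to 32 (0.604%) in pBIC and 192 (7.35%) in pBIC10. Erythroid and platelet markers summed to 2658 CPM in pBIC members against 226 in zero barcodes, and to 77.2 against 89.4 without these barcodes. B-cell markers summed to 1385 against 609.9 CPM and to 630.1 against 572 without them, macrophage and monocyte markers to 286 against 246, neutrophil markers to 56.2 against 103, and NK markers to 328 against 359. Dendritic markers stood at 454 against 134 CPM, a list that includes the interferon-inducible Bst2. The deepest of the 6 pBIC10 members, with 25429 UMIs, held 42.3% of the UMIs of that group. Values without this member or without the 3 pBIC members are therefore given for genes where they changed a call or differed by over 1.5-fold. They are not given for every such gene. Ratios and calls without the 3 pBIC members also leave out the 32 pBIC zero barcodes rich in such RNA.

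Ifit UMIs were few in most members. In pBIC they ran from 3 to 24 with a median of 4, and 4 members stood apart with at least 20. Exactly 3 were held by 18 members, just inside the limit, while 54 CD8 barcodes held 2 and 315 held 1. Ifit1 gave 51.1% of the 313 Ifit UMIs of pBIC members, Ifit3 39.9% and Ifit3b 8.95%, and 36 of the 53 held Ifit1 together with Ifit3 or Ifit3b. The 6 pBIC10 members held 17, 9, 7, 4, 3 and 3, and in the first of them 15 were Ifit1.

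**Figure D1:**
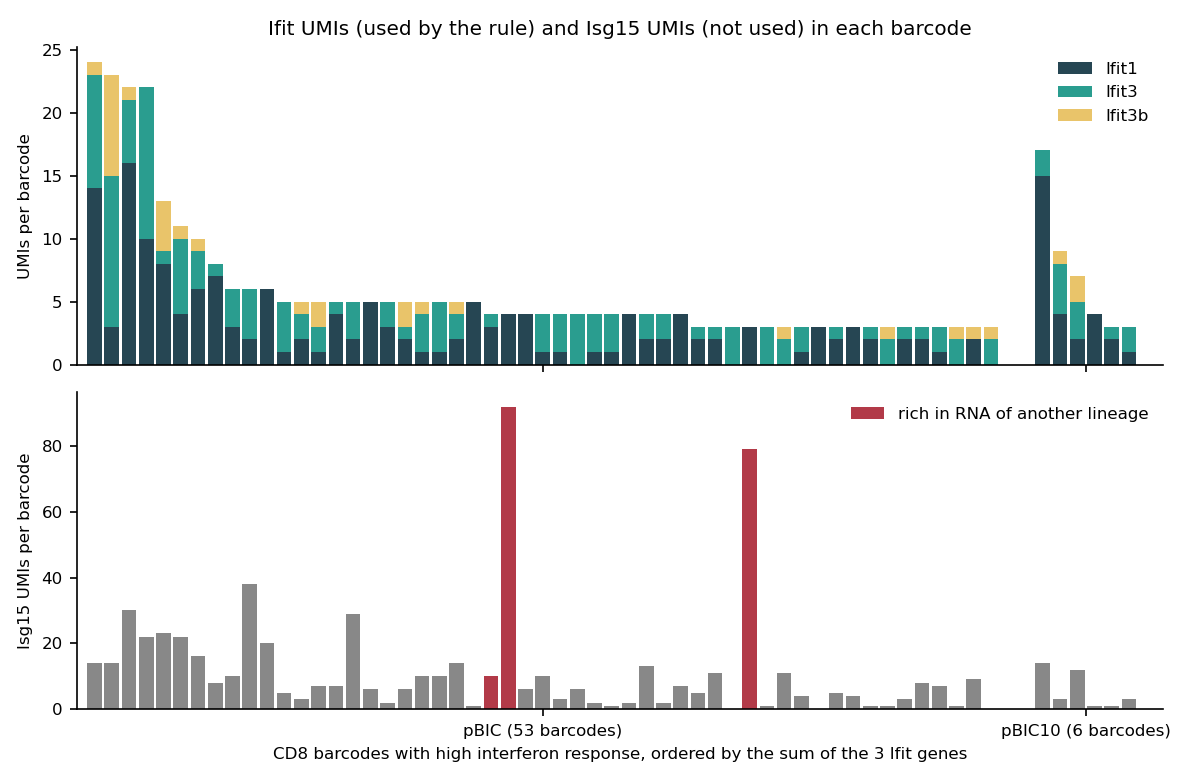
UMIs of Ifit1, Ifit3 and Ifit3b (top, stacked) and of Isg15 (bottom) in each of the 53 pBIC and 6 pBIC10 members, 1 bar per barcode in the order of the Ifit sum. The Ifit sum falls from 24 to 3 in pBIC and from 17 to 3 in pBIC10, and the highest Isg15 bars, 92 and 79, belong to the members rich in haemoglobin RNA (red, as is the member rich in MHC class II RNA).

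The members made up 0.926% of CD8 barcodes in pBIC (Clopper-Pearson interval 0.695 to 1.21%) and 0.221% in pBIC10 (0.0810 to 0.480%). With each barcode thinned to 5000 UMIs, leaving out 1576 and 790 shallower ones, the shares were 0.603% (0.391 to 0.889%) and 0.259% (0.0842 to 0.604%), and these intervals overlap. With 2000 UMIs, leaving out 77 and 48, they were 0.266% (0.149 to 0.438%) and 0.0374% (0.000948 to 0.208%), which overlap too. Among CD4 barcodes, chosen in the mirrored way, 16 of 908 (1.76%, 1.01 to 2.85%) in pBIC and 4 of 264 (1.52%, 0.414 to 3.83%) in pBIC10 reached 3 Ifit UMIs. Thinned to 5000 UMIs the CD4 shares were 0.741% (0.202 to 1.89%) and 1.36% (0.165 to 4.83%). Thinned to 2000 they were 0.446% (0.122 to 1.14%) and 1.15% (0.239 to 3.33%, 3 of 260). In pBIC10 at 2000 UMIs the CD4 interval lay above the CD8 one, and the other thinned intervals overlapped. Erythroid barcodes, which have no TRB contig, reached 3 Ifit UMIs in 5.83% of 463 in pBIC and 3.20% of 219 in pBIC10, at median depths of 19868 and 28917 UMIs against 6640.5 and 7647 for CD8 barcodes. Thinned to 2000 UMIs the erythroid shares were 0.930% (0.254 to 2.36%) and 0.493% (0.0125 to 2.71%), and thinned to 5000 UMIs they were 2.27% (1.04 to 4.27%) and 0% of 189 (0 to 1.93%). In pBIC the CD8 share was below the erythroid one at 5000 UMIs, while at 2000 UMIs and in pBIC10 the intervals overlapped. No CD8 share was thus shown to be above the erythroid one. The part of free RNA in the Ifit UMIs, of CD8 or of erythroid barcodes, was not tested.

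Interferon genes that the rule did not use were higher in the members. The 86 measured genes of 4 lists (antiviral effectors, nucleic acid sensors, interferon signalling and interferon feedback) summed to 19510 CPM (19102 to 19925) in pBIC members and 6561 (6538 to 6584) in zero barcodes, a log2 ratio of 1.57 (1.54 to 1.60). The sum was 8665 CPM in barcodes with 1 Ifit UMI, 9665 with 2, 14255 with exactly 3 and 24081 with 5 or more. Per barcode the level ran from 6278 to 51291 CPM in pBIC members with a median of 18793. Of the 53 members 51 lay above the zero median of 7433, 45 above the zero 95th percentile of 11446 and 14 above the highest zero barcode of 25237. The groups overlap at the lower end, and 3 of the 5300 zero barcodes lay above the member median. Without the 3 members rich in other RNA the sum was 19746 CPM.

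In pBIC10 the same genes summed to 11441 CPM (10602 to 12329.7) in members and 3886 (3863 to 3909) in zero barcodes, a log2 ratio of 1.56 (1.45 to 1.67). The 6 members stood at 24559, 20560, 8652, 8558, 6804 and 10713 CPM in order of falling Ifit count. A pair of them thus stood apart, all 6 lay above the zero median of 4391 and 5 above the zero 95th percentile of 7326. Without the deepest member the sum was 13490 CPM and the log2 ratio 1.80 (1.66 to 1.93).

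**Figure D2:**
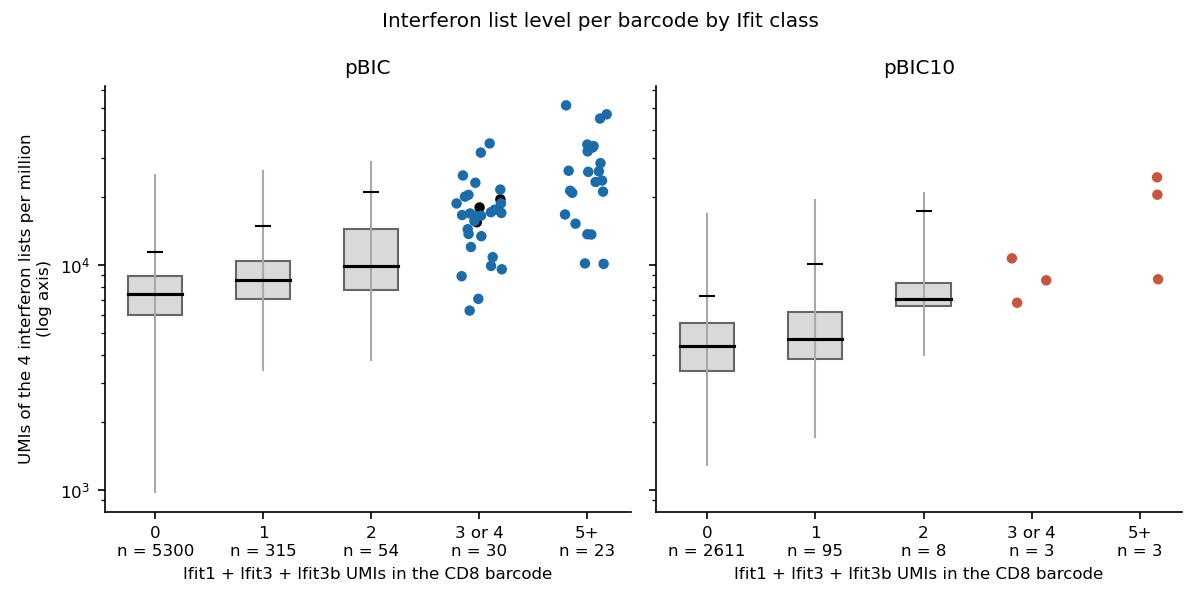
Summed level of the 4 interferon lists in CPM (log axis) in CD8 barcodes by Ifit count, in pBIC (left) and pBIC10 (right). Boxes span the quartiles with the median as a line, dashes mark the 95th percentile and grey lines the range; points are single members (black: rich in RNA of another lineage), of which 51 of 53 in pBIC lie above the zero median of 7433.

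Antiviral effectors were the group with the most genes called higher. A gene counted as testable where at least 20 UMIs were expected in each group at equal levels. This held for 3403 genes in pBIC, of which 145 (4.26%) were higher and 433 (12.7%) lower in members, at a median log2 ratio of -0.12. With scaling by the median of ratios in place of totals, 212 were higher and 286 lower. Without barcodes rich in RNA of another lineage in either group, 119 (3.95%) of 3010 were higher and 430 (14.3%) lower. Of 51 measured effectors 18 were testable and all 18 were higher, at a median log2 ratio of 1.76. Isg15, a ubiquitin-like modifier, had 0 to 92 UMIs per member with a median of 7, and 94.3% of members (84.3 to 98.8%) held at least 1 against 44.5% of zero barcodes. Its level was 1397 CPM (1289 to 1511) against 89.1, a log2 ratio of 3.97 (3.85 to 4.09). Without barcodes rich in other RNA in either group the ratio was 3.75. The 3 members among those barcodes held 92, 79 and 10 of its 621 UMIs. Xaf1, a pro-apoptotic interferon target, was at 364 CPM against 60.1, with 0 to 11 UMIs per member and a log2 ratio of 2.60 (2.36 to 2.83). Bst2 (tetherin), which holds budding virus at the cell surface, was at 378 CPM against 62.5 with UMIs in 40 of 53 members, a log2 ratio of 2.60 (2.36 to 2.82). The chromatin adaptor Daxx was at 238 CPM against 51.8 (log2 ratio 2.20, 1.91 to 2.48), and Shisa5, found in all 53 members, at 1734 against 1113 (0.64, 0.54 to 0.74).

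Some effectors too sparse in zero barcodes to be testable had steep contrasts and were picked after their values were seen. Rsad2 (viperin), an enzyme that makes a chain-terminating nucleotide, had 61 UMIs in 17 of 53 members, 21 of them in a haemoglobin-rich one, and stood at 137 CPM (105 to 176) against 2.94. Rtp4 had 133 UMIs in 43 members and stood at 299 CPM against 20.2. Usp18, which removes Isg15 from proteins and dampens the type I receptor, had 77 UMIs in 28 members, 173 CPM (137 to 216) against 3.40. Mx1 had no UMI in members or zero barcodes of either library, for which the interval reaches 6.72% of the 53 members.

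Most testable sensors were higher. Of 6, 5 were called: the DNA-sensing family member Ifi209 at a log2 ratio of 2.16 (1.91 to 2.40), the RNA sensor Ddx58 (RIG-I) at 2.13 (1.88 to 2.37), Zbp1, a sensor of Z-form nucleic acid, at 2.09 (1.88 to 2.29), Mndal at 1.46 (1.26 to 1.66) and Ifi203, picked after its value was seen, at 1.40. Tmem173 (STING), the adaptor of cytosolic DNA sensing, was at -0.12 (-0.63 to 0.34).

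Among signalling genes 2 of 7 testable were higher, Irf7 among them. Without the 3 members rich in other RNA 1 of 4 testable was higher, and Irf7 was then below the count limit. Irf7, the factor that amplifies type I interferon, had 0 to 14 UMIs per member with a median of 3 and UMIs in 44 of 53. It stood at 452 CPM (392 to 519) against 44.1, a log2 ratio of 3.36 (3.14 to 3.57). Irf1 was at 0.46 (0.24 to 0.68), Irf3 at 0.39 (-0.22 to 0.93) and the receptor kinase Tyk2 at -0.41 (-1.22 to 0.29), short of 1.5-fold. Stat2 and Irf9, which bind the ISRE as parts of 1 complex, were below the count limit and picked after their values were seen, at 2.40 (1.96 to 2.82) and 1.86 (1.46 to 2.24).

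Of 5 testable feedback genes 2 were higher, or 3 of 4 without the 3 members rich in other RNA. Socs1, an inhibitor of Jak kinases, was at 157 CPM against 68.0, a log2 ratio of 1.21 (0.85 to 1.55), and the phosphatase Ptpn6 at 1.12 (0.73 to 1.48), or 0.87 without the 3 members rich in other RNA. Socs3 was at 0.56 (0.21 to 0.90), or 0.68 and past the limit without those members, and Pias1 at 0.29 (-0.32 to 0.83). None of the 3 testable receptor chains passed 1.5-fold: Ifnar1 was at 0.27 (-0.33 to 0.80), Ifngr1 at 0.24 (0.03 to 0.44) and Il10rb at 0.19 (-0.29 to 0.63). Ifnar2, below the count limit, was at 67.5 CPM (45.5 to 96.3) against 40.0.

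Interferon ligands were rare. The 20 type I and type III interferon genes had 14 UMIs among all 18129 pBIC barcodes and 22 among all 14991 pBIC10 barcodes, and 0 in the members. Ifng, which encodes interferon gamma, was lower in pBIC members, at 245 CPM (201 to 296) against 461, a log2 ratio of -0.91 (-1.20 to -0.64). In pBIC10 Ifng had 13 UMIs in 3 members and stood at 0.42 (-0.49 to 1.19).

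Genes best known as targets of interferon gamma were higher as well. Of 8 testable GTPases and targets 7 were called, at a median log2 ratio of 1.18, led by the guanylate-binding proteins Gbp9 at 1.95 (1.66 to 2.24) and Gbp2 at 1.61 (1.30 to 1.91), then the immunity-related GTPase Ifi47 at 1.29 (1.11 to 1.46) and Gbp4 at 1.27 (1.02 to 1.51). Of 22 testable genes of MHC class I presentation 3 were higher, H2-T22 at 0.71 (0.53 to 0.88), the peptide transporter Tap1 at 0.68 (0.46 to 0.88) and its partner Tapbp at 0.66 (0.45 to 0.87), and the list median was 0.26. Over all 3403 testable genes 4.26% were higher. Without the 3 members rich in other RNA 4 MHC class I genes were higher and 1 lower. H2-T23 (Qa-1), a ligand of the inhibitory NKG2A receptor, was at 0.58 (0.44 to 0.72), just short of the limit, and at 0.59, just past it, without those members.

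**Figure D3:**
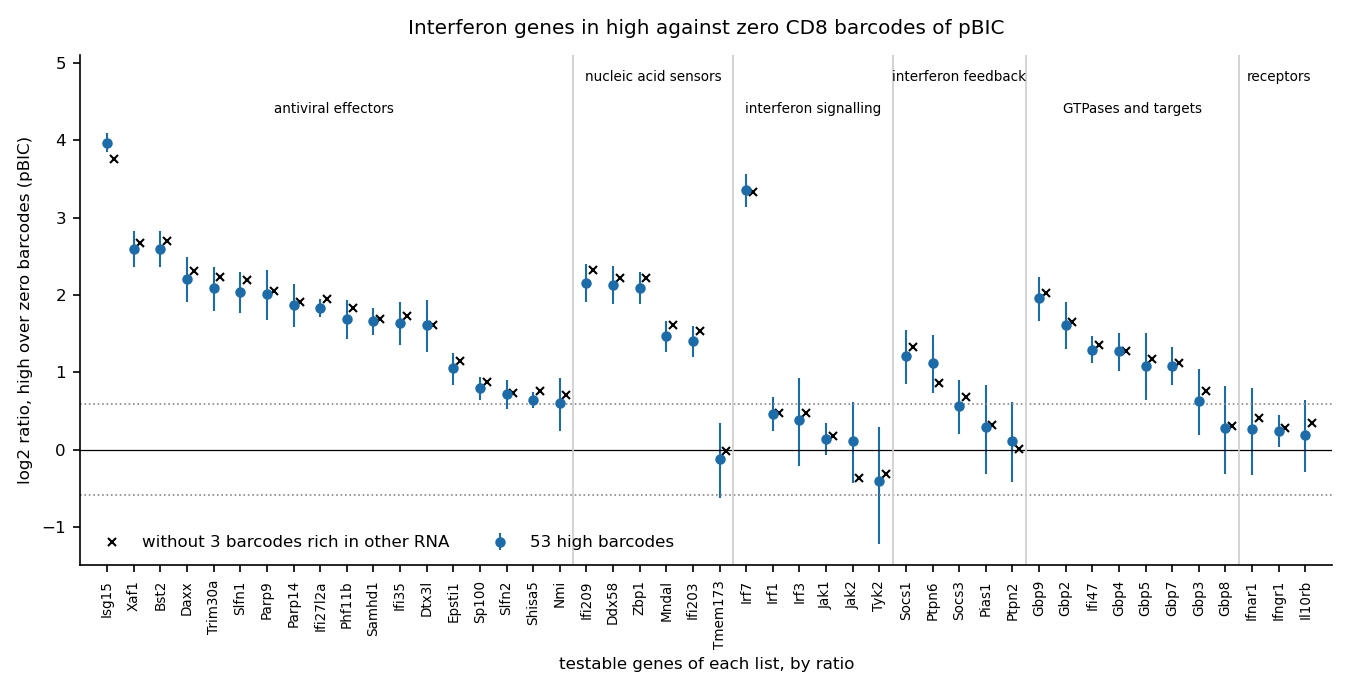
Log2 ratio of the level in the 53 pBIC members over zero barcodes for testable genes of 6 lists, with 95% counting intervals (points). Crosses leave out the barcodes rich in RNA of another lineage in either group, 3 of them members. Dotted lines mark 1.5-fold. Isg15 at 3.97 and Irf7 at 3.36 stand highest, and the receptor chains lie between 0.19 and 0.27.

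Genes of recent activation were mostly lower in pBIC members. Of 7 testable 5 were lower and 1 higher, and 3 of 6 lower without the 3 members rich in other RNA, where 1 was higher. Over all 3403 testable pBIC genes 12.7% were lower and 4.26% higher. Tnfrsf4 (OX40), a co-stimulatory receptor induced by antigen, had 8 UMIs in 6 members, 18.0 CPM (7.77 to 35.5) against 112, a log2 ratio of -2.64 (-3.85 to -1.66). The immediate-early genes Nr4a1, at -2.34 (-4.22 to -0.98) on 4 UMIs, Egr1, at -1.55 (-2.39 to -0.83), and Nr4a2, at -1.37 (-2.43 to -0.49), were lower. Cd69, which antigen and type I interferon both induce, was higher at 200 CPM (161 to 246) against 71.5, a log2 ratio of 1.49 (1.17 to 1.79), with UMIs in 34 of 53 members.

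Of 13 testable genes of exhaustion and checkpoint 7 were lower and 0 higher in pBIC (5 of 12 lower without the 3 members rich in other RNA). The shares over all 3403 testable genes were 12.7% lower and 4.26% higher. Rgs16, a brake on G-protein signalling, had 2 UMIs in 1 member, and Il10 had 4 UMIs in 4 members, 9.0 CPM (2.45 to 23) against 46.1. Il10 was thus detected in 7.55% of members (2.09 to 18.2%) and 14.1% of zero barcodes (13.1 to 15%), and these intervals overlap. The co-stimulatory receptor Tnfrsf9 (4-1BB) was at a log2 ratio of -0.99 (-1.49 to -0.54) and Havcr2 (TIM-3) at -0.84 (-1.29 to -0.43). Tox, a factor of the exhausted state, was at 0.47 (0.18 to 0.75).

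Effector genes were divided, with 3 of 17 testable higher and 3 lower in pBIC, or 4 and 2 of 16 without the 3 members rich in other RNA. These small counts were not tested against the shares over all 3403 testable genes, 4.26% higher and 12.7% lower. The chemokines Ccl3 and Ccl4, which attract leukocytes, were at 283 CPM against 863 (log2 ratio -1.61, -1.87 to -1.35) and at 1223 against 2679 (-1.13, -1.25 to -1.01), with 21.4% and 25.7% of their UMIs in 1 member. Klrg1, a receptor of effector cells, was at -0.69 (-1.35 to -0.10), or -0.51 without the 3 members rich in other RNA, which ends the call. The death ligand Tnfsf10 (TRAIL) was higher at 1.0 (0.51 to 1.45) and the activating receptor Klrk1 (NKG2D) at 0.70 (0.28 to 1.09). Gzma was at 0.79 (0.60 to 0.98), with 42.5% of its UMIs in 1 member. Its call ended without barcodes that held a Lyz2 or Cd79 UMI (-0.10) and in barcodes of 5000 to 15000 UMIs (-0.0011). The pore-forming Prf1 was at -0.50 (-0.80 to -0.22), short of the limit. Granzymes c to g had 1 UMI in the pBIC members.

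Of 9 testable genes of naive and memory cells 4 were higher and 1 lower, beside 4.26% and 12.7% of all 3403 testable genes. Ly6c2 had UMIs in 25 of 53 members and stood at 385 CPM (329 to 447) against 148, a log2 ratio of 1.38 (1.15 to 1.60). Il7r, the interleukin 7 receptor of long-lived cells, was at 157 CPM against 84.6 (0.90, 0.53 to 1.24). Ly6a (Sca-1), itself interferon-inducible, was at 0.61 (0.52 to 0.70), and the chromatin organiser Satb1 was lower at -0.78 (-1.49 to -0.15). Tcf7 (TCF1), kept in naive and progenitor-like cells and below the count limit, had UMIs in 28.3% of members (16.8 to 42.3%) and 15.7% of zero barcodes (14.7 to 16.7%). Cx3cr1, a receptor of effector cells, had UMIs in 13.2% (5.48 to 25.3%) and 17.6%.

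Of 20 testable proliferation genes 7 were lower, 1 was higher and 12 were neither in pBIC members. The shares over all 3403 testable genes were 12.7% lower and 4.26% higher. Without the 3 members rich in other RNA 14 of the 20 were lower and 0 higher. Subunits of the replicative helicase led the lower ones: Mcm5 at -1.51 (-2.22 to -0.88), Mcm2 at -1.01 (-1.69 to -0.41), Mcm3 at -0.94 (-1.46 to -0.47; -1.64 without those members) and Mcm7 at -0.81 (-1.39 to -0.29). Mki67, the usual marker of cycling cells, was at 0.61 (0.42 to 0.79) but at -0.05 without those 3, of which the haemoglobin-rich pair held 52 and 84 UMIs of Mki67 and Top2a. A UMI of either gene was present in 52.8% of members (38.6 to 66.7%) and 58.7% of zero barcodes (57.3 to 60.0%). Among the remaining lists Casp8, an initiator of cell death, was the 1 of 9 testable survival genes that was higher (0.63, 0.28 to 0.96), and Il10ra, the ligand-binding chain of the interleukin 10 receptor, the 1 of 6 in the IL-10 and STAT3 list (0.65, 0.38 to 0.91). Of 4 testable stress genes Hsp90aa1 was lower, and of 10 T-cell genes 0 passed 1.5-fold.

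The 6 pBIC10 members allowed few genes to be compared. Of 382 testable genes 24 (6.28%) were higher and 63 (16.5%) lower, while with median-of-ratios scaling 46 were higher and 42 lower, and with TMM scaling 4 and 153. Without zero barcodes rich in RNA of another lineage 24 (6.32%) of 380 were higher and 51 (13.4%) lower. Of the 4 interferon lists Shisa5 alone was testable, at 1049 CPM against 581, a log2 ratio of 0.85 (0.47 to 1.21). Isg15 had 14, 3, 12, 1, 1 and 3 UMIs in the 6 members, each of which thus held it against 24.6% of zero barcodes. It stood at 566 CPM (392 to 791) against 36.4, a log2 ratio of 3.96 (3.42 to 4.45). Irf7 had 3, 1, 3, 0, 1 and 2 UMIs (3.03, 1.96 to 3.92), and Zbp1 had 26 UMIs in all 6 (3.12, 2.50 to 3.68). Of 10 testable MHC class I genes 2 were higher and 1 lower. The class I heavy chains H2-Q4, at 1.17 (0.78 to 1.52), and H2-D1, at 0.64 (0.44 to 0.82), were higher, though H2-D1 was at 0.58 without the zero barcodes rich in other RNA, which ends its call. The lower one was Pdia3, a part of the peptide-loading complex, at -0.66 (-1.54 to 0.08), or -0.51 without the deepest member, which ends the call.

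Effector genes of the pBIC10 members were divided too. Ccl4 had 8 UMIs in 3 of 6 members, 133 CPM (57.5 to 263) against 1653, a log2 ratio of -3.63 (-4.85 to -2.65), or -2.84 (-4.05 to -1.86) without the deepest member. Ccl3 had 11 UMIs, 90.9% of them in 1 member, and stood at -1.95 (-2.95 to -1.11), or at -1.15 (-2.15 to -0.31) without the deepest member. Prf1 was at -1.36 (-2.57 to -0.38) on 8 UMIs. Gzmb was at 1033 CPM against 1143, short of the limit. Without the deepest member Gzmb was past the limit, at 664 CPM and -0.78 (-1.44 to -0.20). The granzyme Gzmk was higher at 0.77 (0.44 to 1.08) and the chemokine Ccl5 at 17720 CPM against 11362 (0.64, 0.55 to 0.73), but Ccl5 was at 0.44 without those zero barcodes, which ends its call. Tubb5, a tubulin, was at 1.26 (0.99 to 1.51), with 86.5% of its UMIs in the deepest member, and at -0.84 (-1.62 to -0.16) without it. Hmgb2, a chromatin protein of dividing cells, went from 0.51 (0.16 to 0.85) to -2.06 (-3.37 to -1.01). Mki67, below the count limit, was at 600 CPM against 197. Without the deepest member Mki67 was at 57.8 CPM on 2 UMIs, a log2 ratio of -1.77 (-4.81 to 0.087). No Tcf7 UMI was found in the 6 members, for which the interval reaches 45.9%.

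Of 288 genes testable in both libraries and open to naming, 4 were higher in pBIC and 24 in pBIC10, and 1 in both. Lower were 27 in pBIC and 49 in pBIC10, and 15 in both. The higher one was Shisa5. Among the 10 lower ones that were named, beside Ccl3 and Ccl4, the glycolytic enzymes Ldha and Tpi1 were at -0.90 (-1.07 to -0.73) and -1.59 (-2.09 to -1.13) in pBIC and at -1.38 (-1.92 to -0.89) and -1.05 (-2.01 to -0.25) in pBIC10. The cytokine Mif was at -0.87 (-1.07 to -0.67) and -1.62 (-2.19 to -1.11). Odc1, which starts polyamine synthesis, was at -0.64 (-0.57 and short of the limit without the deepest pBIC member) and -1.52. The growth-associated Pa2g4 was at -0.79 and -1.66, and the nucleotide kinase Nme1 at -0.95 and -0.80. Without the deepest pBIC10 member Nme1 was at -0.43, which ends its call there, and Tpi1 at -1.84. The chaperone Hsp90aa1 was at -1.11 and -1.21, and Penk, which encodes proenkephalin, at -2.18 and -0.88, the last at -0.16 without the deepest pBIC10 member. Under some alternatives given further on, Ccl3, Ccl4, Penk, Nme1, Pa2g4 and Odc1 turned direction in pBIC10, and Ccl4 in pBIC.

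**Figure D4:**
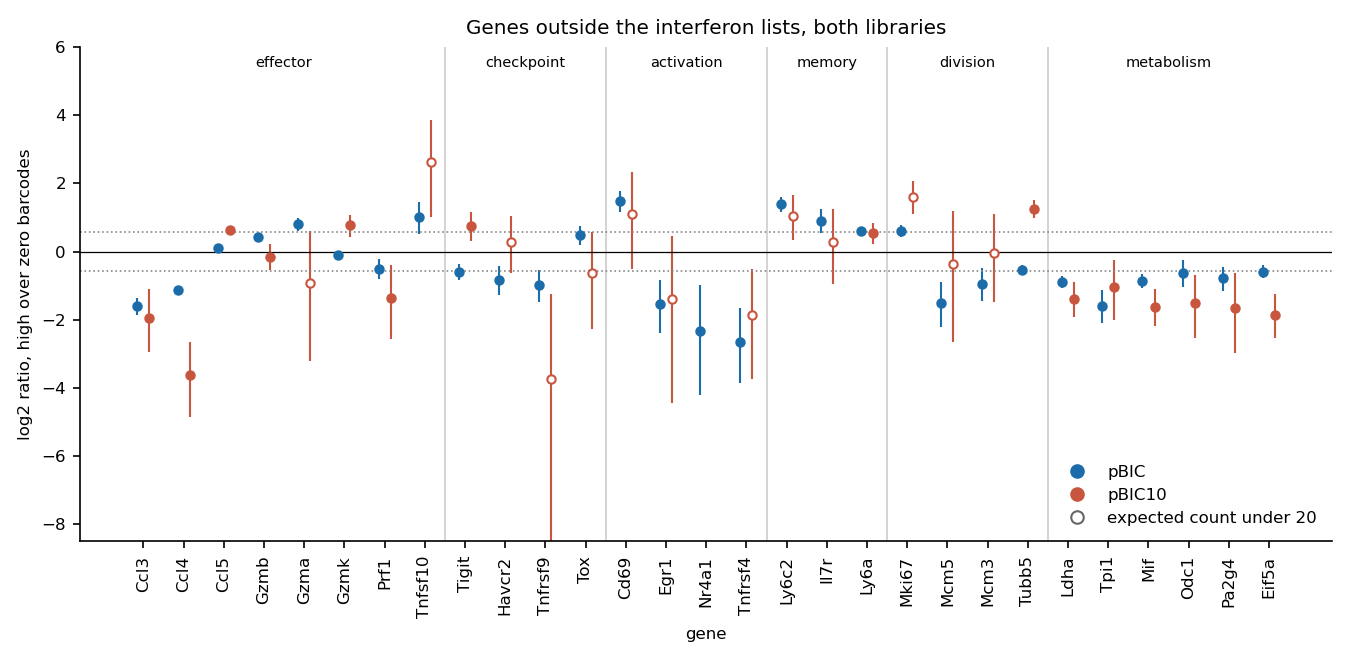
Log2 ratio of members over zero barcodes for genes outside the interferon lists in pBIC (blue, 53 members) and pBIC10 (red, 6 members), with 95% counting intervals, of which that of Tnfrsf9 in pBIC10 runs off the axis; open points had an expected count under 20, dotted lines mark 1.5-fold, and genes with no UMI in a group are not drawn. Ccl3, Ccl4 and the genes under metabolism lie below 0 in both libraries, and Tigit (-0.60 and 0.75) and Tubb5 lie on opposite sides.

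The ratios differed most between the libraries, towards lower values in pBIC10, for Ccl4, Cd74, Eif5a, AY036118 and Nme2, and towards higher values for Tubb5, Hnrnpl, Tigit, Penk and Ctla2a. Eif5a, a translation factor, was at -0.59 (-0.77 to -0.41) in pBIC and -1.85 (-2.54 to -1.24) in pBIC10. Cd74 was at 1.88 in pBIC, where the deepest member gave 72.4% of its UMIs, at 0.37 without the 3 members rich in other RNA, and at -0.24 in pBIC10, or 0.52 there without the zero barcodes rich in other RNA. The inhibitory receptor Tigit was at 351 CPM against 531 in pBIC and at 766 against 456 in pBIC10, log2 ratios of -0.60 (-0.84 to -0.37) and 0.75 (0.30 to 1.17), and without barcodes rich in other RNA at -0.53, which ends the call, and 0.62. These differences were not tested.

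Set directly against each other, 400 genes were testable between the members of the libraries, and 26 (6.5%) were higher and 56 (14.0%) lower in pBIC10. Among zero barcodes 13.5% of 11956 genes were higher and 22.9% lower in pBIC10. These shares cannot be compared, since far fewer genes reach the count limit in the members. Isg15 was lower in pBIC10 members than in pBIC members, at a log2 ratio of -1.30 (-1.85 to -0.80), and lower to a like degree among zero barcodes, at -1.29 (-1.39 to -1.19). Irf7 was at -1.44 among members and -1.11 among zero barcodes. Tigit was at 1.13 (0.62 to 1.61) and -0.22 (-0.25 to -0.19).

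The members came from many T-cell clones. A clonotype, as the authors deposited it, joins cells with the same receptor chains. The 53 pBIC members fell into 40 of the 1308 clonotypes of CD8 barcodes, 30 with 1 member, 7 with 2 and 3 with 3, and the 6 pBIC10 members into 6 of 1222. In pBIC members made up 1.27% (0.581 to 2.39%) of barcodes in clonotypes of 1 cell, 0.826% (0.413 to 1.47%) in those of 2 to 9, 0.95% (0.573 to 1.48%) in those of 10 to 49 and 0.833% (0.456 to 1.39%) in those of 50 or more. These intervals overlap. Of 14 pBIC clonotypes with at least 50 CD8 barcodes 6 held members, at up to 2.99%, and the 4 such clonotypes of pBIC10 held 0 in 270 barcodes.

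**Figure D5:**
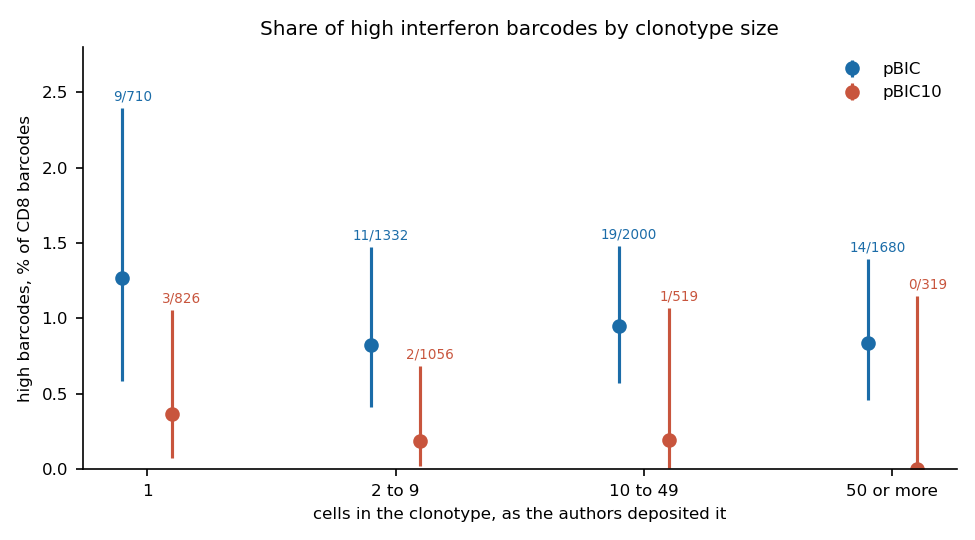
Members as a percentage of CD8 barcodes in clonotypes of 1, 2 to 9, 10 to 49 and 50 or more cells in pBIC (blue) and pBIC10 (red), with Clopper-Pearson 95% intervals and counts above each point. The intervals of the 4 sizes overlap within each library, from 1.27% at 1 cell to 0.833% at 50 or more in pBIC.

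The TRB CDR3 is the loop that contacts the peptide. Its nucleotide sequences are shown for the 3 largest clonotypes of each library by CD8 barcodes. Of the 3 pBIC clonotypes with 3 members, clonotypes 3 and 69 are shown too, and clonotype 1 is among the largest. Of the 7 with 2 members only clonotype 591 is shown, both of whose barcodes were members. It does not stand for the others. The largest clonotypes were picked by size, and some of them hold no member. The sequences are read 5′ to 3′ from the deposited contigs, and capitals mark the first and the last codon.
pBIC clonotype 1, TRBV12-1: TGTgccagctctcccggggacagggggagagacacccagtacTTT
pBIC clonotype 2, TRBV12-1: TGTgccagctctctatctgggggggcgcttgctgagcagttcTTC
pBIC clonotype 5, TRBV19: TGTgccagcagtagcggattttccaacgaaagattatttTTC
pBIC clonotype 3, TRBV2: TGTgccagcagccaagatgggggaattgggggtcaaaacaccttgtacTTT
pBIC clonotype 69, TRBV13-1: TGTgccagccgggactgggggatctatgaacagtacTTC
pBIC clonotype 591, TRBV29: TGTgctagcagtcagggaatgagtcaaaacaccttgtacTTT
pBIC10 clonotype 1, TRBV31: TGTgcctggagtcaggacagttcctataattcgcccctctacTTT
pBIC10 clonotype 2, TRBV12-2: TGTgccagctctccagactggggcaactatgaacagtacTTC
pBIC10 clonotype 4, TRBV13-1: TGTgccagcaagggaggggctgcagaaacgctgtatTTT
In pBIC, clonotype 1 held 3 members among 279 CD8 barcodes (1.08%, 0.222 to 3.11%), clonotype 2 held 1 of 213, and clonotype 5 held 0 of 116, for which the interval reaches 3.13%. Clonotype 3 held 3 of 115 (2.61%, 0.541 to 7.43%), and clonotypes 1 and 3 each keep 2 members without the haemoglobin-rich barcodes. Clonotype 69 held 3 of 18 (16.7%, 3.58 to 41.4%), and both barcodes of clonotype 591 were members, with 5 and 3 Ifit UMIs and 10 and 11 Isg15 UMIs. The 3 pBIC10 clonotypes held 0 of 101, 66 and 52 barcodes. Of 41 TRB CDR3 sequences of pBIC members 0 were found in pBIC10, and of all 1748 in pBIC CD8 barcodes 2 were.

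Chain numbers in the members had intervals that held the shares of zero barcodes. No TRA chain was found in 5.66% of pBIC members (1.18 to 15.7%) and 10.3% of zero barcodes, and at least 2 TRA chains in 13.2% (5.48 to 25.3%) and 11.6%. At least 2 TRB chains, which can mark a droplet with more than 1 cell, were found in 5.66% (1.18 to 15.7%) and 3.83%. TRBV29, picked among 22 V segment labels after the values were seen, was used by 9 of 53 pBIC members (17.0%, 8.07 to 29.8%) and 3.89% of zero barcodes. By clonotype it was used by 7 of 40 with members (17.5%, 7.34 to 32.8%) and 61 of 1240 with zero barcodes (4.92%, 3.78 to 6.27%), and in pBIC10 by 0 of 6 and 65 of 1178. TRBV19 and TRBV13-3, likewise picked, were used by 9.94% and 9.23% of pBIC zero barcodes and by 0 of 53 members, for which the interval reaches 6.72%.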

How the data were processed

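Gene expression and TCR libraries were made with a 10x 5′ kit, per the labels' protocols. The deposited matrices hold UMI counts of 32285 features in 18129 and 14991 barcodes (166941618 and 147884282 UMIs). The submitters' processing notes name Cell Ranger 3.0.1 and GRCm39, the matrix header 5.0.1, and which was used is not given in the sources used here. The authors deposited productive TCR contigs and, for each clonotype, its cells and their fraction.

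Members, lists and alternatives were chosen with earlier results of these data known. UMI counts were summed over barcodes and divided by the group's total. Levels have exact Poisson, ratios exact conditional binomial and shares Clopper-Pearson intervals (Python 3.11.15, scipy 1.17.1). A 0 took a floor of 3 counts. Genes of the rule were left out of the counts of genes. The ratio step was tested on simulated data.

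Named were up to 4 testable genes per list and direction with the largest fold in either library, up to 10 per direction past 1.5-fold in both, up to 5 per direction whose ratios differed most between libraries, and Ifnar1, Ifnar2, Ifng, Il10, Mki67, Tcf7, Cx3cr1 and Gzmc. Genes past 1.5-fold in both and genes that differed between libraries were named leaving out haemoglobins, antigen receptors, sex-linked, mitochondrial and ribosomal protein genes, and predicted gene models.

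Scrublet (scanpy 1.11.5) at its automatic threshold of 0.7184 marked 0 pBIC barcodes and had not worked, so the automatic threshold of pBIC10, 0.3101, was used in both. It marked 440 (2.46%) and 367 (2.50%) barcodes, 2 of them pBIC members, which were left out only as an alternative. TMM factors came from edgeR 4.0.16, with no test. Some genes of the lists were counted but are not reported here by name.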

Additional observations from a re-analysis of the deposited data

Results flagged for a closer look

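Tigit, which encodes an inhibitory receptor, was past 1.5-fold in opposite directions in the libraries: its log2 ratio of members over zero barcodes was -0.60 in pBIC, with UMIs in 49 of 53 members, and 0.75 in pBIC10, with UMIs in 5 of 6. The difference was not tested, since each genotype is 1 mouse. In pBIC the ratio was -0.53 without barcodes rich in RNA of another lineage in either group, 3 of them members. Without the deepest pBIC member it was -0.57 (-0.82 to -0.34), and both values are short of 1.5-fold. In pBIC10 the ratio was 0.88 (0.30 to 1.40) without the deepest member.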

How the results depend on the processing

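No paired analysis was possible because each genotype has 1 library. Counts are given as genes higher, genes lower and interferon genes higher, 145, 433 and 27 in pBIC and 24, 63 and 1 in pBIC10. Without barcodes holding a Lyz2 or Cd79 UMI they were 55, 133 and 9, and 3, 14 and 0. Without those holding Mki67 or Top2a they were 41, 87 and 8, and 6, 17 and 0. With at least 2 Ifit UMIs the interferon genes were 42 in pBIC, and pBIC10 had 55, 157 and 3. With at least 5 they were 69, 254 and 12 in pBIC, and 0 interferon genes in pBIC10. With 5000 to 15000 UMIs 90 were higher and 218 lower in pBIC, and 8 and 23 in pBIC10. An expected count of 5 gave 536, 1411 and 51, and 215, 401 and 11. No filter gave 8758, 1987 and 72, and 13390, 1200 and 75. There a gene with 0 UMIs in members took the floor of 3 counts and could count as higher. In pBIC10 only 71 of the interferon genes had a UMI in members, so these counts do not measure genes that were higher. A 2-fold limit gave 62 and 96 in pBIC, and 4, 19 and 0 in pBIC10. Median-of-ratios scaling gave 286 lower in pBIC and 46 higher in pBIC10. TMM gave 4, 153 and 0 in pBIC10, where it put the median log2 ratio at -0.49, and mean CPM per barcode 35 lower. Thinning to 2000 UMIs gave shares of 0.266% and 0.0374%, and to 5000 0.603% in pBIC. Smaller groups and other filters test fewer or more genes, and beyond that the cause was not tested.

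Of the named genes' values under these alternatives, 1476 in pBIC and 451 in pBIC10 kept their place, 288 and 119 moved, and 13 and 18 turned direction. Without Lyz2 or Cd79 UMIs those in pBIC were Gzma -0.10 and Ccl4 0.034, and in pBIC10 Ccl3 1.42, Prf1 0.69, Tubb5 -0.84, Penk 0.64 and Nme1 0.52. Without Mki67 or Top2a UMIs they were Klrg1 0.061, Mcm7 0.031, Hbb-bs -0.56 and Hba-a1 -0.013 in pBIC, and Pdia3 0.048, Tubb5 -0.83, Nme1 0.74, Pa2g4 0.46 and Odc1 0.071 in pBIC10. Without the 10 largest clonotypes Hbb-bs was at -1.97 and Hba-a1 at -1.02, and with at least 5 Ifit UMIs at -1.89 and -1.0, and Ctla2a in pBIC10 at -0.68. With at least 2 Ifit UMIs pBIC10 had Ccl3 at 0.58, Ccl4 at 0.63 and Prf1 at 0.18. With 5000 to 15000 UMIs Gzma in pBIC was at -0.0011, and in pBIC10 Tubb5 at -0.31 and Nme1 at 0.19. By mean CPM per barcode Nme1 in pBIC10 was at 0.012. The removal of barcodes rich in other RNA (Mki67 -0.053 and Hbb-bs -0.36 in pBIC) and of the deepest member (Tubb5 -0.84 in pBIC10) were chosen after seeing the data.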

Other observations

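In pBIC, interferon genes made up more of the called genes at larger ratios. Of 145 genes past 1.5-fold in pBIC members 27 were in the 4 interferon lists and 7 among the interferon gamma GTPases and targets, and of 21 past 4-fold 12 and 0 were. Among all 3403 testable genes 36 and 8 were. Without barcodes rich in RNA of another lineage in either group the counts were 26 and 6 of 119, and 10 and 1 of 12. In pBIC10 1 of 24 genes past 1.5-fold was in the interferon lists, 0 of 4 past 2-fold, and 0 genes were past 4-fold. Only 1 gene of those lists was testable in pBIC10, so these counts cannot be compared with those of pBIC.

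Some testable genes outside the lists were picked after their values were seen. Rnf213, a ubiquitin ligase with antimicrobial roles, was at a log2 ratio of 3.13 (2.90 to 3.36) in pBIC, with UMIs in 41 of 53 members. Lgals9, which encodes galectin-9, was at 1.55 (1.26 to 1.82) with UMIs in 39 members, Lgals3bp, a secreted glycoprotein, at 1.66 (1.41 to 1.91) in 43, and Ms4a4c at 1.76 (1.46 to 2.04) in 26. Mxd1, which opposes Myc at its target sites, was at 1.15 (0.79 to 1.5). At the other end were genes of ribosome assembly, Mrto4 at -2.34 (-3.79 to -1.22) and Gar1 at -1.95 (-3.16 to -0.97), and Fdps, of sterol synthesis, at -1.33 (-2.11 to -0.65).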
